A study of Caenorhabditis elegans with 2 samples.

Results

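Aminoacyl-tRNA synthetases join each amino acid to the tRNAs that read its codons, and so supply every ribosome with its building blocks. Cells carry separate sets for the cytosol and for the mitochondrion. The mitochondrial enzymes are also encoded in the nucleus, made in the cytosol and imported, and in animals some single genes make both forms (in humans, those for glycine and lysine). The genes described here are the protein-coding genes of the nematode Caenorhabditis elegans whose name is a single letter followed by "ars-" and a number. There were 32 of them among 19973 protein-coding genes with an annotated start (Ensembl release 115, WBcel235). By annotation and textbook knowledge, 20 encode cytosolic enzymes or subunits and 12 mitochondrial enzymes.

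Chromatin immunoprecipitation sequencing (ChIP-seq) was used to ask where ETS-4 lies along the genome. ETS-4 belongs to the ETS family of transcription factors, whose DNA-binding domain recognises a GGAA core, and is known in worms for roles in lifespan and axon regeneration. All embryos were hermaphrodites of strain OP509, which carries the unc-119(tm4063) allele on chromosome III and the integrated transgene wgIs509, expressing ETS-4 with GFP and FLAG at its C-terminus. They were collected as late embryos 5 hours after synchronization by egg bleaching, and sonicated chromatin was precipitated with anti-GFP. The 2 biological replicates formed 1 group, so no conditions were compared. Chromatin came from whole embryos, so protein bound in few cells and weak binding in many cells cannot be told apart. The deposited lists gave regions without read counts. The depth is therefore unknown, no interval can be put on a signal, and a gene without a region is only known to have none listed.

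A gene was given the region of highest signal whose summit, the base where the enrichment peaked, lay from 1000 bp upstream to 200 bp downstream of any of its transcript starts. The signal is the peak caller's own value. Regions numbered 15619 in replicate 1 and 14622 in replicate 2, weak ones included, and 12348 when both replicates were pooled. The list kept by the irreproducible discovery rate (IDR), which retains regions ranked alike in both replicates, held 1106. Each of these also appears, at an identical signal, in the pooled list. Lists were scaled separately, so values are compared within a list and otherwise by rank.

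The stretches under 4 of the 5 members with a region in the strictest list are shown first. The fifth, aars-2, ranks between kars-1 and yars-2 in signal, and its sequence is not shown here. They are RefSeq WBcel235 (ce11) sequence of the summit base with 100 bases on either side, given 5′ to 3′ on the gene's own strand, which is the minus strand in every case. Capitals mark GGAA and GAGAGA, or their reverse complements TTCC and TCTCTC. The stretches are ears-2 at IV:390393-390593, mars-1 at IV:11635730-11635930, kars-1 at II:7072704-7072904 and yars-2 at IV:4712542-4712742. The last lines give aars-1 at II:11464501-11464701 and gars-1 at III:5162895-5163095, chosen after their values were seen, as the only members with GAGAGA in this window.
ears-2: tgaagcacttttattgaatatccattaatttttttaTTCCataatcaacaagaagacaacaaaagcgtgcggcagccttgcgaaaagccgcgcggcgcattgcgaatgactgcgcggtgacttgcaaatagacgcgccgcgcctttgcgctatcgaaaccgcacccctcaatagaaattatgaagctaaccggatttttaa
mars-1: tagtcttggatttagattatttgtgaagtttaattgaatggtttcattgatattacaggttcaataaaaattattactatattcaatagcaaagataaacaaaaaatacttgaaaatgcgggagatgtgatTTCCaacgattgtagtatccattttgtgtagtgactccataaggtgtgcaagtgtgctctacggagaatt
kars-1: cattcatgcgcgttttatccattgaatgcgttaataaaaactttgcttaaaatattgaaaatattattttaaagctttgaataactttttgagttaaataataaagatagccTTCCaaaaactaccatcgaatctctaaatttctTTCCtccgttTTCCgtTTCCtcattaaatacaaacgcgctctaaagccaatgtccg
yars-2: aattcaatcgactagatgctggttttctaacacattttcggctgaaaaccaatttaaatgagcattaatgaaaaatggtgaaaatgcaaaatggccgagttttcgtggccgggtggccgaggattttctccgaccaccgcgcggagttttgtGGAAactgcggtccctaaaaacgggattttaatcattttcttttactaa
aars-1: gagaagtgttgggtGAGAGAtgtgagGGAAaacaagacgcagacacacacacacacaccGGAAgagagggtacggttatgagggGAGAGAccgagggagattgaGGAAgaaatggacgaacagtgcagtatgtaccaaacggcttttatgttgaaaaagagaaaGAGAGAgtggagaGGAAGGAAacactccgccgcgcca
gars-1: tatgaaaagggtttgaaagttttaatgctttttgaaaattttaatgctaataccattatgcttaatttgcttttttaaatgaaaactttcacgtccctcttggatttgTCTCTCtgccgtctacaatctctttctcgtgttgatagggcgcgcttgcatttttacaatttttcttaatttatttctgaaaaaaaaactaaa

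ETS-4 had an IDR region in a promoter window of 5 of the 32 synthetase genes (15.6%), against 5.34% of all protein-coding genes. These were mars-1, kars-1 and aars-2 among the cytosolic enzymes and ears-2 and yars-2 among the mitochondrial ones. The weaker lists held more members and had a higher background. The pooled list had a region at 14 members (43.8%), against 26.5% of all genes. The replicate 1 list had one at 17 (53.1%), against 29.5%, and the replicate 2 list at 16, against 28.5%. No region was listed in any of the 4 lists for 14 members (43.8%), against 59.3% of all genes. Members were chosen with earlier results of these data known, so these shares are descriptions without a test. The deposited −log10 q of the pooled regions was 3.288 at the IDR members, 1.92 at gars-1, 1.59 at fars-1 and 1.22 at aars-1. It was 0.947 at pars-2, 0.427 at nars-1, 0.256 at lars-1, 0.175 at vars-1, 0.104 at dars-1 and 0.0753 at tars-1. A region in the pooled list is thus not by itself a significant one, and pooled counts below include such weak entries.

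Where synthetase genes had a region, their signals lay on both sides of the all-gene median, which by definition has as many genes above it as below. The median of the highest pooled signal was 52.4 over the 14 members, against 36.8 over all 5284 genes with a pooled region, and 9 of the 14 lay above that all-gene median. In replicate 1, 11 of 17 members exceeded the all-gene median of 19.3, and in replicate 2, 9 of 16 exceeded 19.8. By class these were 6 of 12 cytosolic and 5 of 5 mitochondrial members in replicate 1. In replicate 2 they were 7 of 10 cytosolic and 2 of 6 mitochondrial members. The same 5 genes with an IDR region are counted in every list. All 5 IDR members were above the median of all genes with an IDR region, 110.8.

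Among the cytosolic enzymes, mars-1, which charges the methionine tRNAs, had the highest pooled signal, 206, with 89.99 in replicate 1 and 114 in replicate 2. Its summit at IV:11635830 was intergenic, 343 bp upstream of the nearest mars-1 start, and also lay in a window of F58B3.6. It ranked 112 in the pooled list, 131 in replicate 1 and 114 in replicate 2, so its place among regions hardly differed between replicates. The lysine enzyme gene kars-1 had a pooled signal of 176, with 83.7 in replicate 1 and 97.65 in replicate 2. Its summit at II:7072804 lay 389 bp upstream, in intergenic sequence, in the window of no other gene, and ranked 169 in replicate 1 and 164 in replicate 2. The cytosolic alanine enzyme gene aars-2 had a pooled signal of 123, with 55.9 in replicate 1 and 65.8 in replicate 2. The aars-2 summit at I:3983001 was intergenic, 182 bp upstream, again in no other gene's window, and ranked 458 in replicate 1 and 392 in replicate 2. The mars-1 and kars-1 regions were thus in the upper part of the IDR list and the aars-2 region nearer its middle, 453rd among the 1066 genes with an IDR region. Replicate summits of the 3 were 18 to 92 bp apart.

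The remaining 6 cytosolic members with a pooled region had no IDR region. The glycine enzyme gene gars-1 came closest, with a pooled signal of 62.85, and its place differed between replicates, with 22.8 in replicate 1 (rank 3249) and 43.5 in replicate 2 (rank 849). Its summit at III:5162995 lay inside gars-1, in an intron, 632 bp downstream of the outer start and 718 bp upstream of the inner start, and it counted for the gene through the inner start. In replicate 2 alone, gars-1 was among the 1106 regions of highest signal. For fars-1, a subunit of the phenylalanine enzyme, the pooled signal was 55.5 (31.3 in replicate 1, 22.2 in replicate 2), but the summit lay 868 bp upstream, in the 3′ UTR of T08B2.15 and nearer to the start of rbm-5. A stronger pooled region, at 65.0, had its summit within the bounds of fars-1 but outside its windows, and so was not counted.

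The other 4 were near or below the all-gene median of 36.8. The asparagine enzyme gene nars-1 had 36.8 (17.0 and 25.2 in replicates 1 and 2), and its window was shared with nduf-6, a complex I subunit. The leucine enzyme gene lars-1 had 33.2 (16.8 and 24.9). The aspartate enzyme gene dars-1 had 28.6 and was listed in replicate 1 at 21.75 but not in replicate 2. Its summit was nearer to the start of ctr-9, a Paf1 complex gene transcribed away from it. The threonine enzyme gene tars-1 had 27.5 (17.1 and 14.7), in an intron of kel-1 and in a window of xpf-1. Its best summits were 614 bp apart between replicates, and the closest summits of the 2 replicates in its windows were 157 bp apart. In the replicate lists only, cars-1 (cysteine) had 14.1 and 15.3 in replicates 1 and 2, at summits 571 bp apart, and qars-1 (glutamine) 17.1 and 13.1, at summits 1699 bp apart. The proline enzyme gene pars-1 had 14.9 in replicate 1 alone. The lowest signal in any region was 13.3 in replicate 1 and 13.1 in replicate 2. The cytosolic genes with none listed were ears-1, fars-3, hars-1, iars-1, rars-1, sars-1, wars-1 and yars-1.

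The mitochondrial glutamate enzyme gene ears-2 had the highest signal of all 32 members, 295 in the pooled list, 165 in replicate 1 and 130.2 in replicate 2. Its summit ranked 24 in the pooled list, 15 in replicate 1 and 64 in replicate 2, and 38th among the 1066 genes with an IDR region. It lay at IV:390493, 25 bp upstream of the ears-2 start, in the 91 bp between that gene and uncp-18, which is transcribed away from it, and the region counted for both genes. The cytosolic glutamate gene ears-1 had none listed. The mitochondrial tyrosine enzyme gene yars-2 had a pooled signal of 114, with 50.6 in replicate 1 and 64.4 in replicate 2. Its summit at IV:4712642 was 18 bp upstream of its outermost start, in the window of no other gene, although miro-1, a mitochondrial GTPase gene on the same strand, ended 200 bp upstream.

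The other mitochondrial members with a pooled region were weaker. The mitochondrial alanine gene aars-1 had 49.4 (32.8 and 19.3 in replicates 1 and 2), 104 bp upstream in a promoter shared with rga-1. The proline gene pars-2 had 45.4 (23.0 and 17.8), in its own 5′ UTR. The valine gene vars-1 had 31.1 (20.5 and 15.0), in its own coding exon 104 bp after the start. Replicate 1 placed its best summit at vars-1 1035 bp from that of replicate 2, and a weaker replicate 1 summit lay 76 bp from it. The asparagine gene nars-2 was listed in its windows in replicate 2 alone, at 13.5, and dars-2, fars-2, iars-2, lars-2, rars-2 and sars-2 had none. A pooled region at 39.3 had its summit within the bounds of nars-2 but outside its windows, and was not counted. The same held, besides fars-1, for regions within aars-1 (47.25), aars-2 (35.24), cars-1 (26.96) and pars-2 (24.45). Over all 18 members of either class without a pooled region, the nearest pooled summit was 1767 to 17123 bp from a start.

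**Figure D1:**
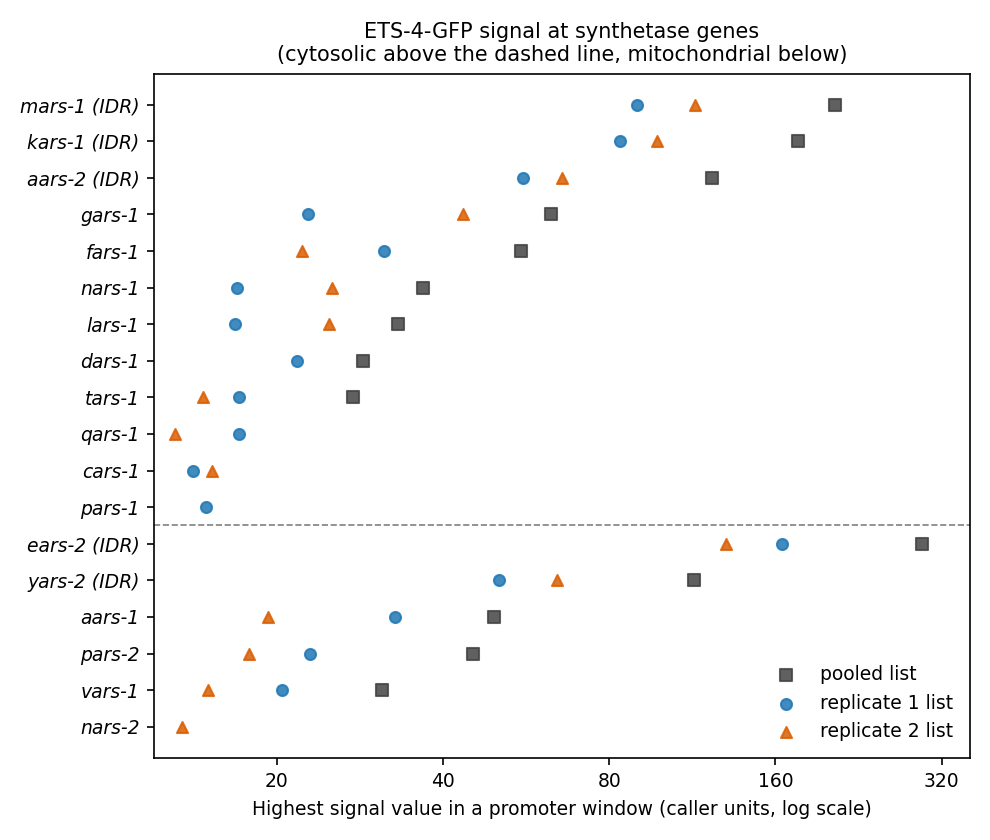
Highest signal in a promoter window for the 18 synthetase genes with a region in any list (x, caller units on a log scale; y, genes, cytosolic above mitochondrial). Squares are the pooled list, circles replicate 1 and triangles replicate 2; the lists were scaled separately, so symbols are compared between genes and not with each other. The 5 genes marked IDR stand above all others in each list, with pooled signals of 114 to 295.

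The 2 replicates were compared by rank and position. Of the 15 members listed in both, 11 had best summits 6 to 257 bp apart, and cars-1, qars-1, tars-1 and vars-1 had them 571 to 1699 bp apart, so their values in the 2 lists are not of 1 site. The same 5 genes, those with an IDR region, were in the upper 1106 regions of both replicates. The IDR list retains regions ranked alike in both, so this is no separate check of them. Over all genes, 781 were in the upper 1106 of both replicates and 451 in those of 1 only.

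The shares of cytosolic and mitochondrial genes with a region were set side by side without a test. An IDR region was present at 3 of 20 cytosolic genes (15.0%) and at 2 of 12 mitochondrial genes (16.7%), and a pooled region at 9 of 20 cytosolic genes (45.0%) and 5 of 12 mitochondrial genes (41.7%). The IDR shares moved apart with other class rules. With classes set by the number in the name alone they were 2 of 20 cytosolic and 3 of 11 mitochondrial genes (27.3%). This rule exchanges aars-1 and aars-2 against their RefSeq product names, so aars-2 counts there as mitochondrial. It also counts vars-1 as cytosolic and leaves out fars-3. Without amino acids with 1 named gene, where 1 gene may make both forms, the shares were 1 of 12 (8.33%) and 2 of 11 (18.2%). The median of the highest pooled signal was 55.5 over 9 cytosolic genes (27.5 to 206) and 49.4 over 5 mitochondrial genes (31.1 to 295). The ranges overlapped widely and the order of the medians depended on the class of a single gene. With vars-1 counted as cytosolic, as the only valine gene under this naming, the medians were 46.1 over cytosolic and 81.8 over mitochondrial genes. Their order also differed between replicates. In replicate 1 the median was 19.4 over cytosolic and 32.8 over mitochondrial genes, and in replicate 2 it was 25.1 over cytosolic and 18.5 over mitochondrial genes.

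Of 20 amino acids, 11 had named genes of both classes. A class without a listed region was counted as the lower one. In the pooled list the cytosolic gene was so counted as higher for 5 of them (alanine, asparagine, aspartate, leucine and phenylalanine). The mitochondrial gene was counted as higher for 3 (glutamate, proline and tyrosine). Arginine, isoleucine and serine had no region at either gene. Alanine alone had a pooled region at the genes of both classes, 123 at aars-2 and 49.4 at aars-1. For the other amino acids with a pooled region only 1 class had one listed, so those are not comparisons of 2 measured signals. The counts were the same in replicate 1. In replicate 2 the cytosolic gene was higher for 4, the mitochondrial gene for the same 3, and aspartate joined those with neither. Of the 3 cytosolic IDR members, mars-1 and kars-1 were the only named gene of their amino acid. For methionine, RefSeq names a mitochondrial enzyme, mars-2, at Y105E8A.20, a name outside the rule used here. It had a pooled signal of 29.7, with 13.5 in replicate 1 and 18.6 in replicate 2. Of the 9 amino acids with 1 named gene, hars-1 (histidine) and wars-1 (tryptophan) had none listed.

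Summits lay close upstream of starts. Of the 14 pooled summits at members, 12 were upstream of the nearest start (85.7%), against 88.3% over all genes, with a median distance of 187.5 bp against 248 bp. The median distance was 282 bp over the 9 cytosolic genes (97 to 868 bp) and 34 bp over the 5 mitochondrial genes (18 to 104 bp). Of the cytosolic genes, dars-1 at 97 bp fell within the mitochondrial range, and the difference was not tested. A region shared with the window of another gene was the case for 7 of 14 members, against 36.5% of all genes with a pooled region. Among IDR regions it was 2 of 5, against 58.7%.

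**Figure D2:**
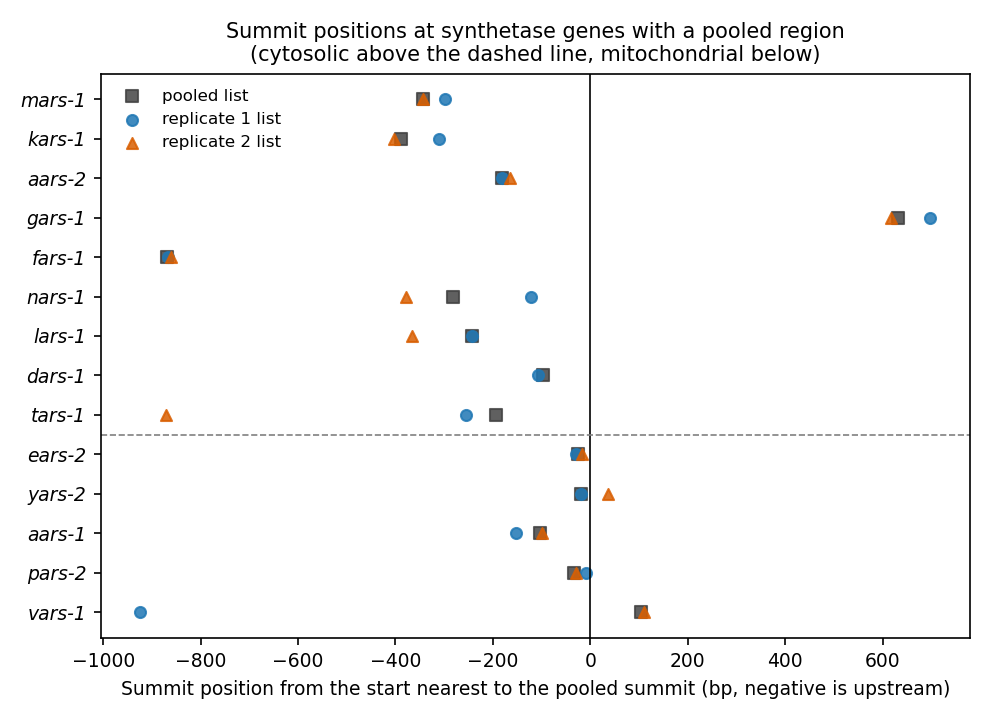
Summit positions at the 14 synthetase genes with a pooled region (x, bp from the start nearest to the pooled summit, negative upstream; y, genes, cytosolic above mitochondrial). Squares are pooled, circles replicate 1 and triangles replicate 2. Mitochondrial pooled summits sit within 104 bp of a start, cytosolic ones spread from 97 to 868 bp, and the best replicate summits of tars-1 and vars-1 lie 614 and 1035 bp apart.

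In worms, genes that follow each other closely on 1 strand can be transcribed together as an operon, from a promoter ahead of the first gene. A same-strand gene from upstream ended within 500 bp of the outermost start, overlaps included, at 11 of 32 synthetase genes (34.4%), against 19.8% of all genes. The distance was chosen after the data were seen. At iars-2 the neighbour overlapped the gene, with a gap of -72 bp. The 11 were 4 of 20 cytosolic and 7 of 12 mitochondrial genes. A pooled region was present at 3 of these 11 (27.3%) and at 11 of the 21 others (52.4%), against 22.3% and 27.5% over all genes split in the same way. The 3 were gars-1, vars-1 and yars-2, and yars-2 alone had an IDR region. The upstream neighbour itself had a pooled region for 4 of the 11 (fars-3, gars-1, rars-2 and yars-1) and an IDR region for 0. Over all protein-coding genes, whatever their position, the shares were 26.5% and 5.34%, and so few neighbours allow no reading of a difference. Operon annotation was not used here.

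**Figure D3:**
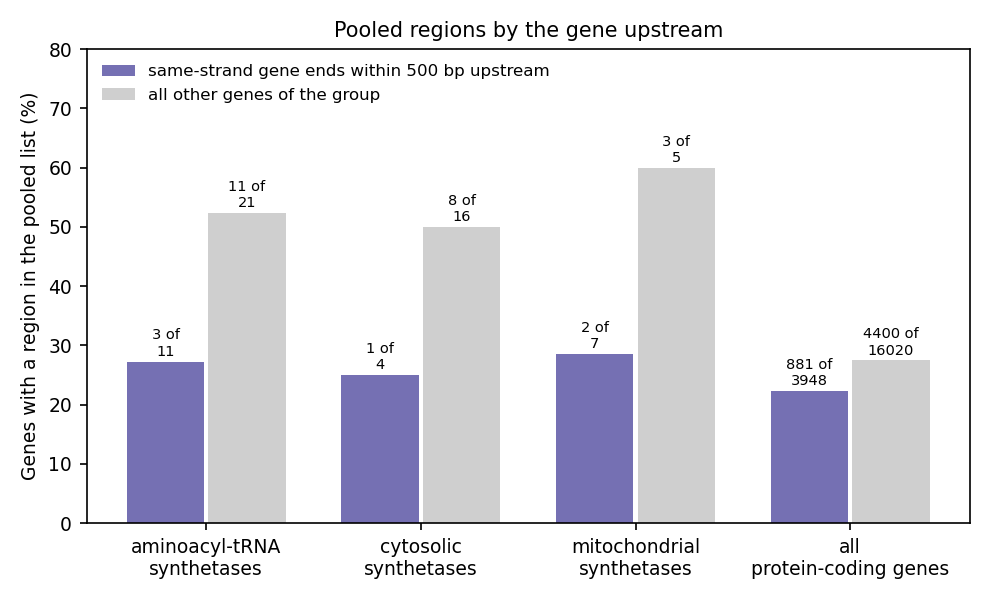
Share of genes with a pooled region (y, percent, with the counts over each bar). Genes with a same-strand upstream gene ending within 500 bp of the outermost start, overlaps included, are set beside all other genes of each group. Among synthetases 3 of 11 and 11 of 21 had a region, and both classes have the lower bar at genes with a close neighbour.

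The GGAA core of ETS sites was found at members at about the share of other pooled regions. Searched on both strands within 100 bp of the summit, it was present at 12 of 14 members with a pooled region (85.7%), against 84.9% of the 4324 distinct best pooled regions of all genes, and at 5 of 5 IDR members, against 81.7% of the IDR regions of all genes. The 2 without it were gars-1 and vars-1. In the stretches shown above it occurs 4 times at kars-1, each time as TTCC between the summit and the gene, and once each at ears-2, mars-1 and yars-2. At aars-2, not shown, there are 5 copies, the nearest 4 bp from the summit. The aars-1 stretch holds 5 copies. GAGAGA was present at aars-1, with 3 copies, and at gars-1, with 1 copy (written TCTCTC on the gene's strand), which is 2 of 14 members (14.3%), against 26.4% over all genes. None of the 5 IDR members had it, against 33.0% of the 742 IDR regions of all genes. Within 50 bp the shares were closer, 2 of 14 members (14.3%) against 16.8%. The longer string GAGACGCAG, searched after the data were seen, was at 0 of 14 members, against 6.57%. In the 300 bases from 250 before to 50 after the outermost start, GAGAGA was present in 7 of 32 synthetase promoters (21.9%), against 21.8% of all promoters, and GGAA in 29 of 32 (90.6%), against 95.1%. The ears-2 stretch also holds 18 CG steps, a count made after the data were seen, and 8.49% of the 742 IDR regions of all genes held as many or more. The other IDR members held 19 at aars-2, 12 at yars-2, 9 at kars-1 and 3 at mars-1, against a median of 12 over the 742. Base composition was like that of other regions, with a median GC of 37.6% at members and 39.3% over all genes.

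Genes that act on tRNA before and after charging were listed for comparison, with earlier results known. Of 10 elongation factor genes, which deliver charged tRNA to ribosomes or move it through them, 5 had an IDR region and all 10 a pooled one. The highest were tufm-2 and gfm-1, of the mitochondrial elongation machinery, with IDR signals of 171 and 126, then eef-1A.1 at 124 and eef-2 at 92.6. Of 12 tRNA maturation genes, 4 had an IDR region (33.3%). They were the Elongator subunit genes elpc-4 (197), elpc-2 (169) and elpc-1 (106), which act in modifying the tRNA wobble base, and the tRNA ligase gene rtcb-1 (177). Of 3 genes that sense uncharged tRNA or act below it (gcn-1, gcn-2 and atf-4), 0 had an IDR region. Cytosolic ribosomal protein genes had an IDR region at 32 of 77 (41.6%) and mitochondrial ones at 5 of 70 (7.14%). A pooled region was present at 5 of 12 tRNA maturation genes (41.7%) and 2 of the 3 sensing genes. It was present at 70 of 77 cytosolic ribosomal genes (90.9%) and 34 of 70 mitochondrial ones (48.6%). These counts stand beside 5.34% for IDR and 26.5% for pooled regions over all genes. The mitochondrial ribosomal share is near the all-gene share for IDR regions and above it for pooled regions. No contrast between these sets was tested.

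**Figure D4:**
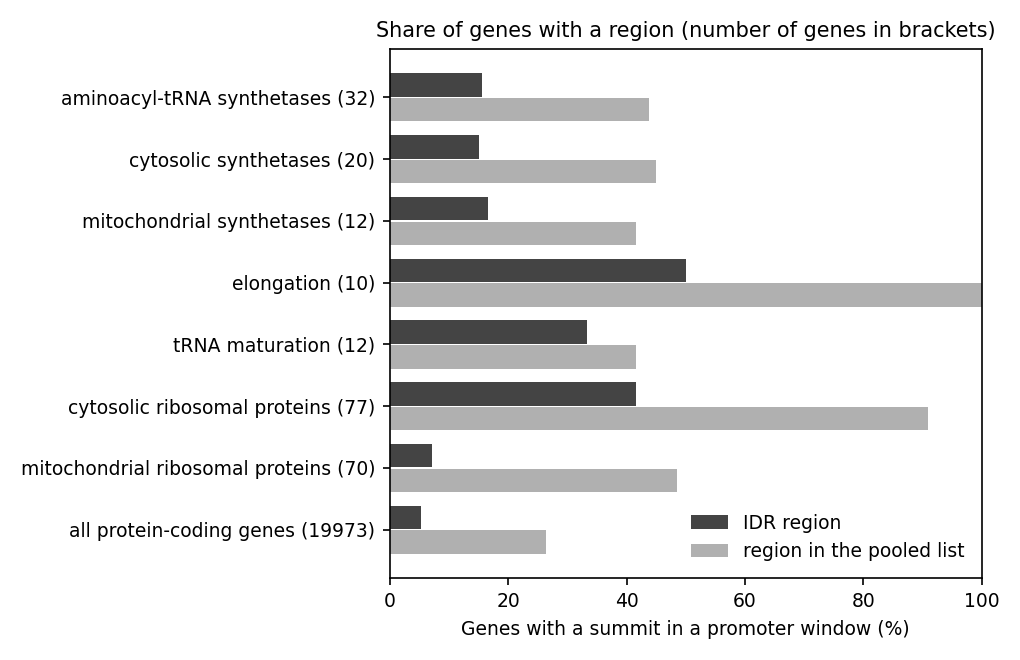
Share of genes with a summit in a promoter window (x, percent; number of genes in brackets) for synthetases, their classes, other gene groups and all protein-coding genes. Dark bars are IDR regions and light bars the pooled list; synthetases reach 15.6% and 43.8%, against 5.34% and 26.5% over all genes.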

How the data were processed

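Per the deposited readme texts, the authors called regions in each replicate against a control, then in both replicates together, and derived the IDR list from these. Not given in the sources used here are aligner, peak caller and IDR threshold. The signal is a score that the authors deposited in column 7, and significance is their deposited −log10 q. Control reads were not used here, and ce10 lists were left out. All ce11 regions lay within WBcel235 chromosomes. Windows, counts, medians and motif searches were computed in Python 3.11.15 with pandas 2.3.3 and numpy 2.4.6, and the window assignment was tested on simulated data. Classes followed RefSeq product names for 14 members and textbook knowledge for 18. The rule written first counted an amino acid with 1 named gene as cytosolic, but vars-1 was counted as mitochondrial, since glp-4 is the other valine enzyme gene. Both assignments are given. All members are named, with IDR members in full, and up to 4 genes of each other list. Members and lists were chosen with earlier results of these data known, so no test was made. Alternatives were narrower and wider windows, the nearest start only, each replicate left out, stricter and looser lists, other classes, other motif windows and the outermost start.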

Additional observations from a re-analysis of the deposited data

How the results depend on the processing

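The 5 members with an IDR region were the same 5 genes with windows of 500/100 bp and 2000/200 bp, the nearest start only, the upper 50% of IDR regions and the upper 1106 regions of replicate 1. The upper 1106 of replicate 2 added gars-1. The shares over all genes were 4.17% and 6.76% with these windows, 3.74% with the nearest start only and 2.97% in the upper 50%. They were 5.07% in the upper 1106 of replicate 1 and 5.17% in those of replicate 2. In the upper 1106 regions of a single replicate list, which is no IDR list, the counts were 3 to 4 of 20 cytosolic and 2 of 12 mitochondrial members. Taking the upper pooled regions to double the IDR number gave 5 cytosolic and 3 mitochondrial members (25.0% of each class), against 9.03% of all genes. Leaving out amino acids with 1 named gene left 1 cytosolic member of 12 (methionine is among those left out, although RefSeq names a mitochondrial enzyme for it). The class medians rest on few genes. For cytosolic genes the median was 36.76 with the 500/100 bp window, 62.85 with the nearest start only, 36.76 without amino acids with 1 named gene, 43.08 with classes set by number alone and 46.12 with vars-1 as cytosolic. For mitochondrial genes it was 81.8, 49.41, 81.8, 118.5 and 81.8 under the same settings. With the 2000/200 bp window the median was 55.48 over cytosolic and 47.41 over mitochondrial genes. Classes set by number alone count aars-2 as mitochondrial, against its RefSeq product name, and vars-1 as cytosolic. Without 1 of the replicates, cytosolic medians were 19.43 to 25.07 and mitochondrial ones 18.53 to 32.76, on the scale of a single replicate list. GAGAGA was at 4 of 14 members within 250 bp (28.6%), against 41.9% over all genes, and at 2 within 50 bp. With gaps of 250 and 1000 bp, chosen after seeing the data, 10 and 13 members had a close same-strand neighbour, 3 and 4 of them with a pooled region. No all-gene share is given for these gaps, so the counts show only how the split of members moved. No paired analysis was possible because there was 1 group. Depth is unknown, so a missing region cannot be told from too few reads.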

Other observations

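Genes of C. elegans that RefSeq product names call tRNA ligases or synthetases, but whose names fall outside the rule used here, also had pooled regions and no IDR region. glp-4, which encodes a valine enzyme, had a pooled signal of 40.1, with 23.4 in replicate 1 and 18.2 in replicate 2. prx-10, a locus whose products include a mitochondrial tryptophan ligase beside a peroxisome protein, had 48.4, with 20.8 in replicate 1 and 34.2 in replicate 2. K03B4.1, named as a seryl-tRNA synthetase, had 34.2 and was listed in replicate 2 at 13.6 and not in replicate 1. Y105E8A.20, found by its RefSeq locus tag and called there a mitochondrial methionine ligase, had 29.7, as given above. The 32 members lay on all autosomes, with 9 on chromosome I, 5 on II, 6 on III, 8 on IV and 4 on V, and with 0 on X.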
